A study of Mus musculus with 14 samples.

Results

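The Wnt ligands, their Frizzled receptors, the co-receptors Lrp5 and Lrp6 and the secreted antagonists form the part of the Wnt pathway that lies outside the cell and in its membrane. Members were taken by gene symbol from the mouse count table: every numbered Wnt and Frizzled gene, Sfrp1 to Sfrp5, Dkk1 to Dkk4, Lrp5, Lrp6, Wif1 and Frzb. The symbol rule, which used no measured value, found 41 genes among 55291 symbols: 19 Wnt ligands, 10 Frizzled receptors, 2 Lrp co-receptors and 10 secreted antagonists. Of these, 37 had enough counts to be tested, and Wnt1, Wnt3a, Wnt8a and Dkk4 did not.

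Wnt proteins carry a lipid, added by the enzyme Porcn, that docks into a groove of the Frizzled receptors. A Wnt that joins a Frizzled to Lrp5 or Lrp6 stops the complex of Axin, Apc, GSK3 and casein kinase 1 from marking beta-catenin for destruction, and beta-catenin then acts with TCF/LEF factors on target genes, while other Wnt and Frizzled members act on cell polarity without beta-catenin. The Sfrp proteins, Frzb and Wif1 bind Wnts outside the cell, and Dkk1, Dkk2 and Dkk4 bind Lrp5 and Lrp6. In the eye, Wnt signals are known for their part in setting up and keeping the retinal pigment epithelium (RPE), the pigmented layer that serves the photoreceptors.

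RNA was sequenced in 14 libraries from C57BL/6J mice. The protocol started from embryonic fibroblasts (MEF, n = 3), and cells under a chemical protocol were collected at day 7 (D7, n = 3), day 18 (D18, n = 3) and day 32 (D32, n = 3); primary RPE (P-RPE, n = 2) was the reference. Cells of D7 and D18 were in a first medium with basic FGF, the GSK3 inhibitor CHIR-99021 at 3 μM, the casein kinase 1 inhibitor CKI-7 at 5 μM, LDN193189, A 83-01, Hh-Ag1.5, RG108 and BMS-345541. So 2 of its agents inhibit kinase families with members in the beta-catenin destruction complex. Their effect on beta-catenin, alone or together, was not measured here, and its direction cannot be read from the list of agents. Cells of D32 had moved to a second medium with Y27632, nicotinamide, retinoic acid and activin A, for which the labels list neither kinase inhibitor. The labels give P-RPE no treatment, enter the first medium for MEF too and enter E13.5 embryos as the tissue of every library. The treated cells that were scraped for RNA were those that looked well induced, so these groups describe selected cells. No label says whether the replicates came from separate cultures or animals, and every p below measures the spread between these samples only, which may be technical.

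Library totals ran from 32352405 to 41390196 counts, and levels are CPM, counts scaled to a common library total, after TMM scaling (trimmed mean of M values). Of 14 RPE markers, 14 were at 1 CPM or more in every D32 library, with a summed level of 4621 to 8758 CPM, and also in P-RPE, with 58660 to 65490 CPM. Their sum was at most 25.3 CPM in MEF, D7 and D18, where Tyr was at 0. The 7 astrocyte markers summed to 24990 to 36780 CPM at D18, against 2186 to 2235 CPM at D32 and 541 to 571 CPM in MEF. The 10 fibroblast markers were present in every library, at 26760 to 28050 CPM in MEF, 18600 to 29190 CPM at D32 and 1334 to 1666 CPM in P-RPE. Markers of endothelium (7 of 7 genes), macrophages (7 of 7), red cells (5 of 6) and rods (7 of 7) were at 1 CPM or more in both P-RPE libraries, where they summed to 562 to 680 CPM, 961 to 981 CPM, 974 to 1779 CPM and 1274 to 2917 CPM. P-RPE thus held RNA of other cell types. At D32 the same lists stood at 87.9 to 118.5 CPM, 106.6 to 182 CPM, 102 to 204 CPM and 54.9 to 85.4 CPM. There 7 of 7, 7 of 7, 5 of 6 and 4 of 7 of their genes were at 1 CPM or more in every library. D32 thus held RNA of these markers too, at lower levels. In such bulk samples fewer cells of a type and less RNA per cell cannot be told apart.

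Changes were called in edgeR with its quasi-likelihood test at a Benjamini-Hochberg adjusted p under 0.05 over 20562 genes, and every adjusted p below is from that test. Each change is a log2 change, given with its SE. From MEF to D7, 12 members rose (32.4% of those tested, beside 28.5% of all genes) and 18 fell (48.6% beside 26.5%), with a median log2 change of -0.60 beside 0.04 over all genes. From D7 to D18, 13 rose (35.1% beside 29.2%) and 10 fell (27.0% beside 27.4%), with a median of 0.31 beside 0.00. From D18 to D32, 14 rose (37.8% beside 29.9%) and 10 fell (27.0% beside 26.1%), with a median of 0.33 beside 0.07. D32 had 19 members higher than MEF (51.4% beside 35.6%) and 7 lower (18.9% beside 24.6%), with medians of 0.87 and 0.26. Against P-RPE, D32 had 17 higher (45.9% beside 27.1%) and 7 lower (18.9% beside 26.8%), with medians of 0.72 and 0.02. P-RPE had 12 higher than MEF (32.4% beside 39.3%) and 11 lower (29.7% beside 31.4%), with medians of 0.07 and 0.18. The members' share stood farthest above the background among genes that fell to D7, and next among those higher at D32 than in P-RPE. The comparisons share groups and are not independent of each other.

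Of the 19 ligands, 8 reached a group mean of 10 CPM, and their highest means were spread over MEF, D7 and D18. Wnt5a, a ligand best known for signalling without beta-catenin, was the most abundant ligand per kb of exon in MEF and at D32. Wnt7b, an epithelial and neural ligand, had the highest mean per kb at D7, and Wnt5b, the close relative of Wnt5a, at D18, while as plain CPM Wnt5a led in all 5 groups. Wnt10b, Wnt4, Wnt9a and Wnt2b fell from MEF to D7.

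Wnt7b stood at 0.213, 0.387 and 0.255 CPM in the MEF libraries, 64.2, 47.3 and 83.5 CPM at D7, 33.1, 40.3 and 28.7 CPM at D18, 2.90, 3.30 and 2.71 CPM at D32 and 0.392 and 1.34 CPM in P-RPE. Every D7 library was above every library of the other groups, and D18 was second, with MEF, D32 and P-RPE at 3.30 CPM or less. Its log2 change was 7.80 (SE 0.39, adjusted p = 8.63e-10) from MEF to D7, -0.93 (SE 0.25, adjusted p = 0.00599) from D7 to D18 and -3.52 (SE 0.29, adjusted p = 1.56e-07) from D18 to D32. Wnt7b lies on chromosome 15 (GRCm38, 85535437 to 85582473, minus strand), and 6.61% of its exonic bases are shared with AU022754 on the other strand. The strand setting of the counting is not given in the sources used here, so reads of the 2 genes cannot be told apart there.

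Wnt5b and Wnt11 were highest at D18. Wnt5b stood at 3.75, 2.52 and 3.21 CPM in MEF, 8.64, 14.9 and 6.76 CPM at D7, 92.2, 87.7 and 79.5 CPM at D18, 16.4, 24.6 and 18.14 CPM at D32 and 7.05 and 10.1 CPM in P-RPE. All 3 D18 libraries were above all others, and D32 was above D7 without overlap. The log2 change of Wnt5b was 1.68 (SE 0.27, adjusted p = 0.00011) from MEF to D7, 3.09 (SE 0.27, adjusted p = 2.42e-07) from D7 to D18 and -2.13 (SE 0.26, adjusted p = 6.33e-06) from D18 to D32. Wnt11, a ligand of cell movement in the embryo, stood at 8.10, 9.15 and 8.06 CPM in MEF, 1.39, 0.818 and 0.706 CPM at D7, 26.3, 28.6 and 21.0 CPM at D18, 4.21, 5.36 and 2.64 CPM at D32 and 9.43 and 9.89 CPM in P-RPE. It was lowest at D7 and highest at D18, with no overlap between either group and any other. From D7 to D18 it rose by 4.71 (SE 0.29, adjusted p = 5.75e-09), and to D32 it changed by -2.64 (SE 0.26, adjusted p = 5.44e-07). Wnt11 shares 8.8% of its exonic bases with Gm8398 on the other strand.

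Wnt5a itself ran from 58.9 to 131 CPM over the treated libraries. It stood at 131, 133 and 131 CPM in MEF, 69.4, 86.6 and 58.9 CPM at D7, 94.3, 103 and 100.4 CPM at D18, 131, 116 and 87.2 CPM at D32 and 25.4 and 27.8 CPM in P-RPE. P-RPE was below every other library, and D32 overlapped MEF at its upper end. D32 was higher than P-RPE by 2.07 (SE 0.18, adjusted p = 2.07e-07), while its change from MEF was -0.24 (SE 0.14, adjusted p = 0.171), which did not pass. Wnt5a fell by 0.88 (SE 0.15, adjusted p = 0.000123) to D7 and rose by 0.47 (SE 0.15, adjusted p = 0.0123) to D18, a call that was lost without D7 replicate 3, at 0.33 (adjusted p = 0.0733), and with library totals alone, at 0.26 (adjusted p = 0.143). Without D32 replicate 1, the change of D32 from MEF passed, at -0.37 (adjusted p = 0.0473). The fibroblast markers were also low in P-RPE, and their part in the Wnt5a difference was not tested. Wnt5a shares 4.58% of its exonic bases with Gm2670 on the other strand.

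Wnt10b, Wnt4, Wnt2b and Wnt9a had their highest means in MEF and fell to low levels at D7, and they differed in their later levels. Wnt10b, a ligand that acts through beta-catenin and holds back fat cell formation, stood at 15.6, 16.4 and 17.8 CPM in MEF and at no more than 1.52 CPM in any other library. Its change to D7 was -4.30 (SE 0.35, adjusted p = 7.60e-08), and D32 was lower than MEF, with a change of -4.86 (SE 0.36, adjusted p = 3.48e-08). Wnt4, a ligand of kidney and gonad development, stood at 16.1, 16.9 and 16.6 CPM in MEF, 1.68, 2.23 and 1.08 CPM at D7, 11.3, 8.75 and 10.7 CPM at D18, 9.36, 9.34 and 4.20 CPM at D32 and 0.671 and 0.858 CPM in P-RPE. It fell by 3.31 (SE 0.31, adjusted p = 3.57e-07) to D7 and rose by 2.62 (SE 0.30, adjusted p = 3.46e-06) to D18. Wnt2b, a ligand of the ciliary margin of the developing eye, stood at 10.9, 11.7 and 12.8 CPM in MEF, 1.36, 1.41 and 1.93 CPM at D7, 2.92, 1.89 and 2.02 CPM at D18, 4.81, 9.89 and 14.1 CPM at D32 and 9.46 and 13.4 CPM in P-RPE. The D32 libraries spread from near the D18 level to above MEF, so D32 overlapped both MEF and P-RPE.

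Wnt2b fell by 2.91 (SE 0.34, adjusted p = 3.38e-06) from MEF to D7, and its D32 level differed from P-RPE by -0.26 (SE 0.34, adjusted p = 0.541), which did not pass. Wnt9a, a ligand of joint formation, stood at 15.5, 20.5 and 19.5 CPM in MEF, 3.78, 5.59 and 2.87 CPM at D7, 4.44, 4.11 and 6.07 CPM at D18, 5.61, 7.73 and 5.01 CPM at D32 and 9.46 and 12.6 CPM in P-RPE. MEF and then P-RPE were above all treated groups. The change to D7 was -2.18 (SE 0.26, adjusted p = 4.44e-06). D32 was lower than P-RPE, with a change of -0.85 (SE 0.28, adjusted p = 0.0166), a call lost without P-RPE replicate 2, at -0.63 (adjusted p = 0.154), without D32 replicate 3, at -0.73 (adjusted p = 0.0625), and with library totals alone, at -0.64 (adjusted p = 0.0626).

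**Figure D1:**
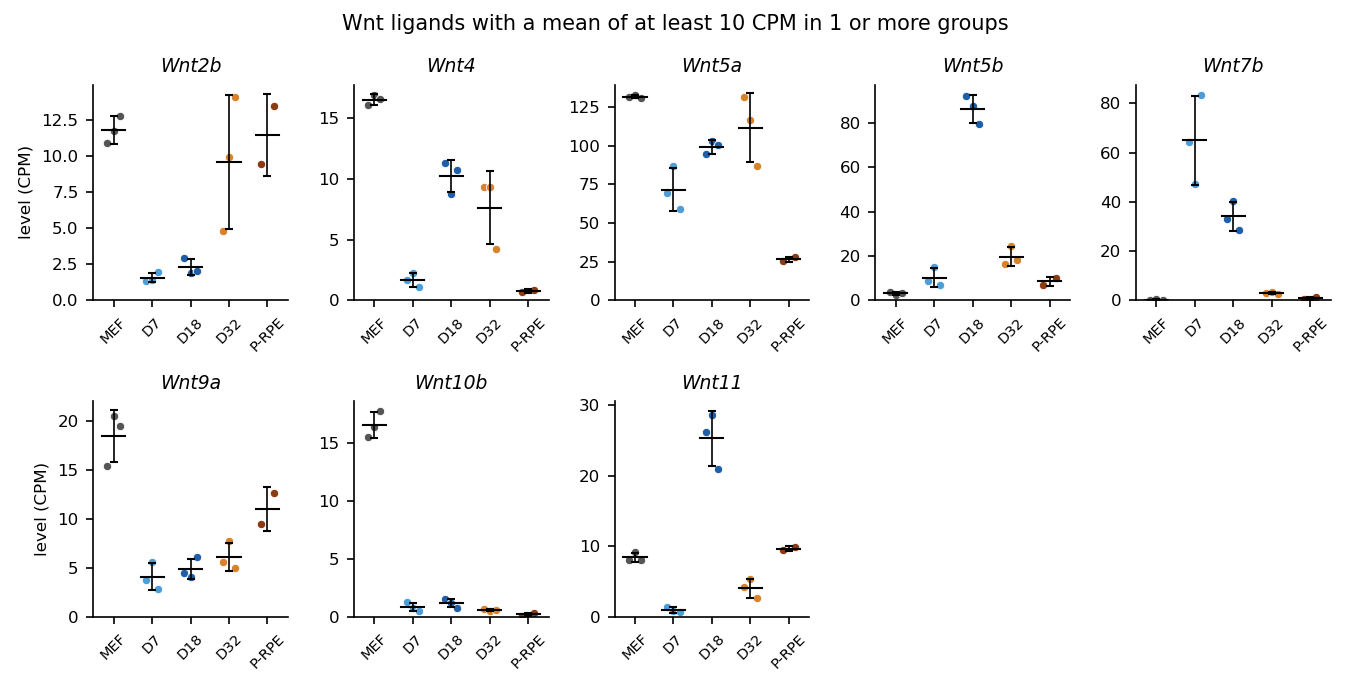
Level in CPM (linear axis from 0) of the 8 ligands whose mean reached 10 CPM in 1 or more groups; points are libraries, the horizontal bar is the group mean and the whiskers are 1 SD. Wnt7b was highest at D7, Wnt5b and Wnt11 at D18, and Wnt4, Wnt9a and Wnt10b in MEF.

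Several ligand genes are neighbours. Wnt6 and Wnt10a lie 6193 bases apart on chromosome 1, Wnt10b and Wnt1 11706 bases apart on chromosome 15, Wnt3a and Wnt9a 16175 bases apart and Wnt9b and Wnt3 24328 bases apart, both on chromosome 11. Neighbours did not always share their highest group or their level. Wnt10a was highest in MEF at 7.15 ± 0.310 CPM, while Wnt6 was highest at D7 at 4.08 ± 1.04 CPM and stood at 0.216 ± 0.155 CPM in MEF. Wnt10b was at 16.6 ± 1.11 CPM in MEF, where Wnt1 was at 0.173 ± 0.00872 CPM (SD, n = 3 for each), and Wnt3a had 0 counts in all 14 libraries beside a Wnt9a that was measured in each. Wnt9b and Wnt3 both had their highest mean at D7, at 0.579 ± 0.498 and 1.02 ± 0.307 CPM (SD, n = 3).

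The other 11 ligands stayed below 10 CPM in every group mean. Wnt7a, the relative of Wnt7b, came closest with 9.75 ± 1.77 CPM at D18 and 0 counts in P-RPE, and Wnt2 had its highest mean, 7.49 ± 2.59 CPM, at D32. Wnt16 was highest in MEF at 3.15 ± 0.456 CPM, Wnt8b at D18 at 1.29 ± 0.370 CPM and Wnt3 at D7 at 1.02 ± 0.307 CPM. Wnt9b, Wnt8a, Wnt1 and Wnt3a were under 1 CPM in every group mean. So Wnt1, Wnt3 and Wnt3a, ligands widely used to activate beta-catenin, were at 1.27 CPM or less in every library.

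Letters upstream of the start are shown for 3 members that rose steeply from D7 to D18, Wnt5b, Wnt11 and Sfrp5, and for Fzd4, the most abundant Frizzled in P-RPE. RefSeq (GRCm38.p6) gave a start region for 27 of the 41 members. Each line is the 250 bases before the RefSeq start nearest to the annotated gene start, read 5′ to 3′ on the gene's strand, and capitals mark a match to the TCF/LEF letters CTTTGAA or CTTTGAT or to their reverse complements.
Wnt5b, minus strand, chr6:119544348-119544597: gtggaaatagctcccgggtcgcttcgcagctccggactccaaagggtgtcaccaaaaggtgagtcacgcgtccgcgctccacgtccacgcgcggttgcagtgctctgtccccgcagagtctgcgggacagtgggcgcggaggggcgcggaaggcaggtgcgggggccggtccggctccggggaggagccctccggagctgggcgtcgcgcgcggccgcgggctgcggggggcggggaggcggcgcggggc
Wnt11, plus strand, chr7:98834862-98835111: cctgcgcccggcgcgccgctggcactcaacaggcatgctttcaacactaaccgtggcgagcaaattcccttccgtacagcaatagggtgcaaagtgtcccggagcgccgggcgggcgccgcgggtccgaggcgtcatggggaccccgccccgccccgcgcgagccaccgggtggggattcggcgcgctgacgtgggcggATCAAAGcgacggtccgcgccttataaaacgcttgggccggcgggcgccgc
Sfrp5, minus strand, chr19:42202253-42202502: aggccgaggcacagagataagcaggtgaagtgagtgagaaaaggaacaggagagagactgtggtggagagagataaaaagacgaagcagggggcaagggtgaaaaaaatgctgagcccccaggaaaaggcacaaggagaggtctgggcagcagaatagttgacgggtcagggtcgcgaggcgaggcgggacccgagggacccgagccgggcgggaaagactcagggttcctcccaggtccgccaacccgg
Fzd4, plus strand, chr7:89404116-89404365: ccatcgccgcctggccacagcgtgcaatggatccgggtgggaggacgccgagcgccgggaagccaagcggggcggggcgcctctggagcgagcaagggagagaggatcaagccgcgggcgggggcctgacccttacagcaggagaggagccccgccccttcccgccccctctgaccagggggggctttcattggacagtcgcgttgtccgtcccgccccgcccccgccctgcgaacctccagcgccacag
Only the Wnt11 line of the 4 holds the TCF/LEF letters. Another RefSeq start of Wnt5b, 94961 bases from its annotated gene start, has CTTTGAT in its window. Over the 27 members with a region, 2 held them in the window of the nearest start, Wnt11 and Dkk1, which is 7.41%. Of all 32851 windows of the same length, 7.48% held them. That share counts every start of a gene, while the share of members counts only the nearest. A match of letters is a description and no site of binding.

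The Frizzled genes were all expressed, and all 10 reached a group mean of 10 CPM. From D18 to D32, 7 rose, 3 fell and 0 did not pass, with a median log2 change of 1.03 beside 0.07 over all genes. The share that rose was 70%, beside 29.9% of all genes. The share that fell, 30%, was near the 26.1% of all genes. The 3 that fell were Fzd3, Fzd9 and Fzd10, which were the Frizzleds that had risen most between MEF and D7. Against P-RPE, D32 had 6 higher and 3 lower (60% and 30%, beside 27.1% and 26.8% of all genes).

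Fzd9 and Fzd10, which are sister receptors, were nearly silent in MEF and high in the first medium. Fzd10 stood at 1.28, 1.33 and 1.14 CPM in MEF, 99.3, 148 and 72.8 CPM at D7, 146, 123 and 150.3 CPM at D18, 6.38, 5.38 and 5.85 CPM at D32 and 1.34 and 2.04 CPM in P-RPE. Fzd9 stood at 1.03, 0.830 and 0.624 CPM in MEF, 45.1, 80.9 and 49.3 CPM at D7, 18.4, 29.7 and 17.1 CPM at D18, 0.501, 0.897 and 0.574 CPM at D32 and 2.35 and 3.27 CPM in P-RPE. For both genes each D7 and D18 library was above each library of the other groups. Fzd10 changed by 6.42 (SE 0.27, adjusted p = 1.34e-10) from MEF to D7 and by -4.57 (SE 0.23, adjusted p = 1.25e-09) from D18 to D32. Fzd9 changed by 6.14 (SE 0.34, adjusted p = 2.24e-09) and -5.04 (SE 0.33, adjusted p = 1.62e-08). Between D7 and D18 they differed in direction, since Fzd9 fell by 1.43 (SE 0.26, adjusted p = 0.000276) while Fzd10 changed by 0.39 (SE 0.20, adjusted p = 0.105), which did not pass but did without D7 replicate 2, at 0.68 (adjusted p = 0.00254); the difference between the genes was not tested.

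Fzd3 and Fzd6, which are known for planar cell polarity, moved in different ways. Fzd3 stood at 7.19, 6.69 and 6.47 CPM in MEF, 64.9, 70.5 and 56.5 CPM at D7, 213, 166 and 237 CPM at D18, 39.0, 23.9 and 35.0 CPM at D32 and 11.7 and 10.9 CPM in P-RPE. No group overlapped another. Fzd3 rose by 3.24 (SE 0.18, adjusted p = 1.66e-09) to D7 and by 1.68 (SE 0.17, adjusted p = 6.35e-07) to D18, changed by -2.65 (SE 0.17, adjusted p = 9.44e-09) to D32 and at D32 exceeded P-RPE by 1.53 (SE 0.20, adjusted p = 1.15e-05). Fzd6 stood at 31.8, 33.0 and 32.8 CPM in MEF, 22.6, 23.1 and 18.5 CPM at D7, 29.0, 33.4 and 28.9 CPM at D18, 67.6, 58.2 and 63.1 CPM at D32 and 37.9 and 38.4 CPM in P-RPE. It was highest at D32, 1.05 (SE 0.11, adjusted p = 1.21e-06) above D18 and 0.72 (SE 0.12, adjusted p = 0.000169) above P-RPE on the log2 scale, and shares 3.15% of its exonic bases with Gm26704 on the other strand.

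Fzd1, Fzd2 and Fzd7 form the subfamily most used by beta-catenin signals. Fzd7 stood at 218, 206 and 205 CPM in MEF, 38.8, 27.5 and 32.9 CPM at D7, 30.0, 34.4 and 28.7 CPM at D18, 160.4, 140.3 and 110.0 CPM at D32 and 145 and 154 CPM in P-RPE. Fzd2 stood at 161, 148 and 142 CPM in MEF, 46.6, 52.6 and 39.8 CPM at D7, 58.8, 49.0 and 49.8 CPM at D18, 85.7, 160.5 and 109.9 CPM at D32 and 27.0 and 34.6 CPM in P-RPE. Both were low in the first medium and rose from D18 to D32, but in P-RPE Fzd7 was near the D32 level and Fzd2 was below every other library. At D32 Fzd7 was still lower than in MEF, with a change of -0.61 (SE 0.14, adjusted p = 0.00144), the only Frizzled called lower in that comparison. Fzd7 changed by -2.67 (SE 0.15, adjusted p = 1.58e-09) from MEF to D7 and by 2.14 (SE 0.15, adjusted p = 1.53e-08) from D18 to D32. Fzd2 changed by -1.70 (SE 0.19, adjusted p = 2.62e-06) and 1.18 (SE 0.19, adjusted p = 8.42e-05). D32 exceeded P-RPE by 1.95 (SE 0.22, adjusted p = 4.20e-06) for Fzd2, and differed by -0.13 (SE 0.15, adjusted p = 0.507) for Fzd7, which did not pass. The change of Fzd2 between MEF and D32, -0.34 (SE 0.18, adjusted p = 0.122), did not pass, but it did without D32 replicate 2, the highest of the 3, at -0.62 (adjusted p = 0.00295).

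Fzd1 moved the other way in the first step. It stood at 137, 147 and 144 CPM in MEF, 356, 362 and 286 CPM at D7, 243, 274 and 178 CPM at D18, 283, 394 and 433 CPM at D32 and 83.1 and 112 CPM in P-RPE. All treated libraries were above MEF, and both P-RPE libraries were below it. Fzd1 rose by 1.23 (SE 0.18, adjusted p = 3.78e-05) to D7, and D32 exceeded P-RPE by 1.92 (SE 0.21, adjusted p = 2.87e-06). Its fall from D7 to D18, -0.53 (SE 0.18, adjusted p = 0.0194), was lost without D18 replicate 3, at -0.37 (adjusted p = 0.0926). Its difference between P-RPE and MEF, -0.55 (SE 0.20, adjusted p = 0.0244), was lost without P-RPE replicate 1, MEF replicate 2 or MEF replicate 3, the first at -0.35 (adjusted p = 0.227).

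Fzd4, the receptor of the ligand Norrin and a gene needed for retinal vessels, was the most abundant Frizzled in P-RPE. Like Fzd8, it was higher there than in any other group. It stood at 16.4, 20.1 and 16.9 CPM in MEF, 15.8, 18.8 and 13.0 CPM at D7, 38.7, 21.4 and 12.6 CPM at D18, 156, 96.7 and 106 CPM at D32 and 500.2 and 467 CPM in P-RPE. D32 was above the earlier groups and P-RPE above D32, both without overlap, while MEF, D7 and D18 overlapped. D18 replicates 1 and 2 were above all MEF and D7 libraries, and replicate 3 was below them. From D7 to D18 Fzd4 changed by 0.61 (SE 0.31, adjusted p = 0.117), which did not pass but did without D18 replicate 3, at 0.92 (adjusted p = 0.00494). D32 exceeded D18 by 2.30 (SE 0.32, adjusted p = 4.40e-05) and MEF by 2.75 (SE 0.33, adjusted p = 9.69e-06) and was lower than P-RPE, with a change of -2.02 (SE 0.34, adjusted p = 0.000222). Endothelial cells carry Fzd4 too, and the 7 endothelial markers summed to 51.9 to 57.4 CPM in MEF, 3.91 to 4.66 CPM at D7, 1.82 to 7.73 CPM at D18, 87.9 to 118.5 CPM at D32 and 562 to 680 CPM in P-RPE. They were thus higher in MEF than at D7 and D18, where Fzd4 overlapped MEF, and highest at D32 and in P-RPE, as Fzd4 was. Their part in the Fzd4 levels was not tested.

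Fzd5 and Fzd8 are the subfamily best known from the early eye and forebrain. Fzd8 stood at 65.5, 65.9 and 60.1 CPM in MEF, 22.3, 19.0 and 17.5 CPM at D7, 39.8, 46.7 and 52.1 CPM at D18, 82.4, 120.5 and 76.7 CPM at D32 and 136 and 146 CPM in P-RPE. Fzd5 stood at 28.8, 27.4 and 26.9 CPM in MEF, 8.99, 8.22 and 8.97 CPM at D7, 20.5, 9.21 and 8.27 CPM at D18, 80.2, 65.2 and 43.7 CPM at D32 and 27.0 and 29.5 CPM in P-RPE. Both had their lowest mean at D7. Fzd8 was highest in P-RPE and Fzd5 at D32. Fzd8 fell by 1.70 (SE 0.16, adjusted p = 3.75e-07) to D7 and rose by 1.24 (SE 0.16, adjusted p = 9.33e-06) to D18 and by 1.01 (SE 0.16, adjusted p = 5.80e-05) to D32. Fzd5 rose by 2.32 (SE 0.29, adjusted p = 1.19e-05) from D18 to D32, after a change of -1.67 (SE 0.29, adjusted p = 0.000221) from MEF to D7. Its change from D7 to D18, 0.535 (SE 0.287, adjusted p = 0.129), did not pass, but it did without D18 replicate 3, at 0.77 (adjusted p = 0.0285). Against P-RPE, D32 was lower in Fzd8, with a change of -0.60 (SE 0.17, adjusted p = 0.00821), and higher in Fzd5 by 1.16 (SE 0.32, adjusted p = 0.00744). The first was lost without P-RPE replicate 2, at -0.54 (adjusted p = 0.0565), with library totals alone, at -0.38 (adjusted p = 0.0628), and with the 2 groups fitted alone, at -0.53 (adjusted p = 0.0534). The second was lost without P-RPE replicate 1, at 1.10 (adjusted p = 0.0616); 17.8% of the exonic bases of Fzd5 are shared with Gm38058 on the other strand.

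Lrp5 and Lrp6, the co-receptors of beta-catenin signals, varied less than the Frizzleds. Lrp6 stood at 101, 101 and 107 CPM in MEF, 81.5, 89.7 and 83.8 CPM at D7, 105, 90.3 and 96.5 CPM at D18, 226, 198 and 239 CPM at D32 and 197 and 177 CPM in P-RPE. D32 was above P-RPE and P-RPE above the other groups, both without overlap. From D18 to D32 Lrp6 rose by 1.18 (SE 0.10, adjusted p = 1.12e-07). It fell by 0.28 (SE 0.10, adjusted p = 0.0232) from MEF to D7, a call lost without D7 replicate 1, at -0.28 (adjusted p = 0.0592), and without MEF replicate 3, at -0.25 (adjusted p = 0.0817), and with library totals alone the change was 0.038. Lrp5 stood at 167, 179.9 and 171 CPM in MEF, 140.4, 120.1 and 136 CPM at D7, 80.9, 77.1 and 60.1 CPM at D18, 147, 239 and 148 CPM at D32 and 207 and 218 CPM in P-RPE. D18 was below all other libraries, and D32 replicate 2 was above all others. Lrp5 fell by 0.86 (SE 0.17, adjusted p = 0.000413) from D7 to D18 and rose by 1.29 (SE 0.17, adjusted p = 1.08e-05) to D32. Between D32 and P-RPE, Lrp6 differed by 0.24 (SE 0.11, adjusted p = 0.0735) and Lrp5 by -0.25 (SE 0.18, adjusted p = 0.256), and neither passed. Without D32 replicate 2 both passed, in opposite directions, at 0.31 (adjusted p = 0.0141) for Lrp6 and -0.53 (adjusted p = 0.00346) for Lrp5.

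**Figure D2:**
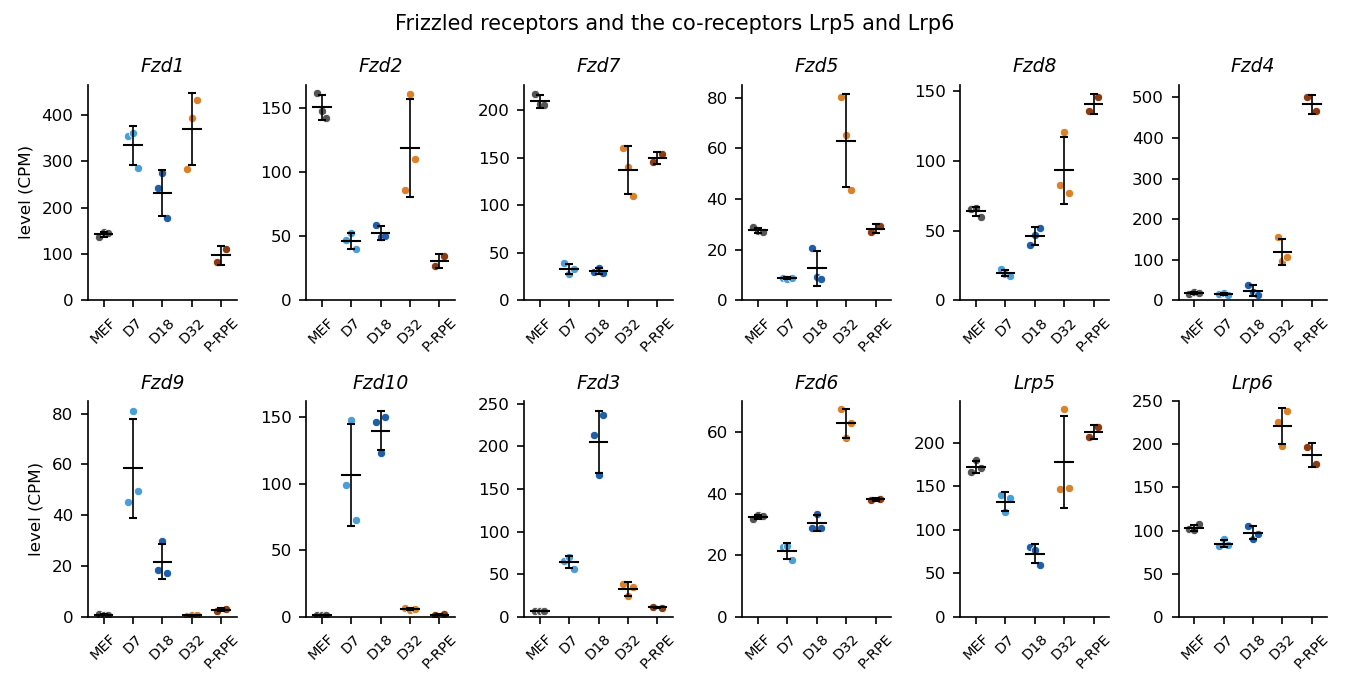
Level in CPM (linear axis from 0) of the 10 Frizzled genes, ordered by subfamily, and of Lrp5 and Lrp6; points are libraries, the horizontal bar is the group mean and the whiskers are 1 SD. Fzd9, Fzd10 and Fzd3 had their highest means at D7 or D18, while Fzd4 was highest in P-RPE.

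The secreted antagonists had the highest median change of the 3 large classes from MEF to D32: of 9 tested, 7 were higher, 0 lower and 2 did not pass, with a median log2 change of 2.00 beside 0.26 over all genes. Of all genes, 35.6% were higher and 24.6% lower. The 7 were Sfrp1, Sfrp2, Sfrp4, Sfrp5, Frzb, Dkk2 and Dkk3. They did not move together in time, and each had its own order over the groups.

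Sfrp5, a Wnt binder known from RPE, was all but absent from the starting cells. It had 1 count over the 3 MEF libraries and stood at 0.435, 0.386 and 0.235 CPM at D7, 39.4, 29.4 and 36.8 CPM at D18, 14.4, 12.8 and 6.63 CPM at D32 and 176 and 176 CPM in P-RPE. P-RPE was far above the rest, and D18, not D32, came second, with no overlap between any of these groups. The ratio to MEF was 1179 at D32 (exact 95% counting interval 211 to 46610) and 18320 in P-RPE (3287 to 723600), which covers counting error only. Sfrp5 rose by 6.64 (SE 0.32, adjusted p = 8.89e-10) from D7 to D18, changed by -1.64 (SE 0.23, adjusted p = 2.65e-05) to D32 and was lower at D32 than in P-RPE, with a change of -3.96 (SE 0.26, adjusted p = 2.19e-08). The RPE markers were at 17.3 to 25.3 CPM in sum at D18, where Sfrp5 was above its D32 level.

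Sfrp1, the most abundant antagonist per kb at D18 and D32, was lowest at D7. It stood at 76.9, 68.7 and 70.7 CPM in MEF, 11.2, 13.7 and 8.50 CPM at D7, 609, 819 and 334 CPM at D18, 440.1, 439 and 453 CPM at D32 and 435 and 355 CPM in P-RPE. The D18 libraries spread to both sides of D32 and P-RPE, and all libraries of these groups were above MEF. Sfrp1 fell by 2.69 (SE 0.26, adjusted p = 8.44e-07) to D7 and rose by 5.72 (SE 0.30, adjusted p = 2.16e-09) to D18. Between D32 and P-RPE it differed by 0.17 (SE 0.27, adjusted p = 0.623), which did not pass. The change from D18 to D32, -0.40 (SE 0.24, adjusted p = 0.169), did not pass either, but it did without D18 replicate 3, at -0.69 (adjusted p = 0.00339).

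Sfrp2, also a Wnt binder, was spread widely over the D18 libraries. It stood at 18.27, 21.5 and 19.9 CPM in MEF, 97.9, 115 and 69.4 CPM at D7, 156, 151 and 20.4 CPM at D18, 54.7, 65.5 and 61.0 CPM at D32 and 2.13 and 3.22 CPM in P-RPE. D18 replicate 3 was at the MEF level, while the other D18 libraries were above all others. In that library the 10 fibroblast markers summed to 3631 CPM, against 15023 and 13102 CPM in replicates 1 and 2; their part was not tested. Sfrp2 rose by 2.24 (SE 0.55, adjusted p = 0.00411) from MEF to D7. From D7 to D18 it changed by 0.21 (SE 0.52, adjusted p = 0.756) and from D18 to D32 by -0.85 (SE 0.52, adjusted p = 0.186), and neither passed. Without D18 replicate 3 both passed, at 0.71 (adjusted p = 0.00419) and -1.35 (adjusted p = 2.03e-05). D32 exceeded P-RPE by 4.50 (SE 0.75, adjusted p = 0.000324) and MEF by 1.60 (SE 0.54, adjusted p = 0.0219), and the second call was lost without MEF replicate 1, at 1.54 (adjusted p = 0.0614), without MEF replicate 3, at 1.60 (adjusted p = 0.0562), and with no filter on low counts, at 1.53 (adjusted p = 0.0774). Gm26771 on the other strand shares 16.1% of its exonic bases.

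Frzb, a Wnt binder first known from cartilage, was a gene of D32 and not of P-RPE. It stood at 5.66, 5.42 and 5.45 CPM in MEF, 22.5, 26.5 and 24.5 CPM at D7, 6.01, 9.79 and 4.67 CPM at D18, 66.2, 68.5 and 66.2 CPM at D32 and 4.76 and 4.45 CPM in P-RPE. D7 came second, and MEF, D18 and P-RPE were at 9.79 CPM or less. Frzb rose by 2.15 (SE 0.20, adjusted p = 3.07e-07) to D7, changed by -1.84 (SE 0.19, adjusted p = 1.35e-06) to D18 and rose by 3.29 (SE 0.20, adjusted p = 5.67e-09) to D32, where it exceeded P-RPE by 3.86 (SE 0.25, adjusted p = 1.44e-08). The fibroblast markers were higher at D32 than in P-RPE as well, with 10 of 10 called, beside 27.1% of all genes. Their part in the Frzb and Sfrp2 differences was not tested.

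The Dickkopf genes Dkk2 and Dkk3 were highest at D32 or in P-RPE, while Dkk1 and Dkk4 were below 1 CPM in every group mean. Dkk2, a modulator that binds Lrp6, stood at 34.4, 31.8 and 33.7 CPM in MEF, 10.4, 16.8 and 8.29 CPM at D7, 2.53, 3.95 and 2.51 CPM at D18, 116, 118 and 154 CPM at D32 and 31.7 and 38.08 CPM in P-RPE. It was lowest at D18 and highest at D32, without overlap. Dkk2 fell by 1.49 (SE 0.23, adjusted p = 6.05e-05) to D7, fell by 1.98 (SE 0.25, adjusted p = 9.10e-06) to D18, rose by 5.43 (SE 0.27, adjusted p = 1.26e-09) to D32 and there exceeded P-RPE by 1.89 (SE 0.26, adjusted p = 2.93e-05). Dkk3, a divergent member of the family, stood at 71.5, 70.0 and 71.8 CPM in MEF, 28.8, 34.4 and 23.9 CPM at D7, 68.0, 73.2 and 40.8 CPM at D18, 296, 228 and 327 CPM at D32 and 207 and 607 CPM in P-RPE. The P-RPE libraries lay below and above all 3 D32 libraries, so the groups overlapped. Dkk3 fell by 1.29 (SE 0.32, adjusted p = 0.00419) to D7 and rose by 1.06 (SE 0.32, adjusted p = 0.0128) to D18, a call lost without D18 replicate 2, at 0.89 (adjusted p = 0.0503), without D7 replicate 3, at 0.92 (adjusted p = 0.0549), and with no filter on low counts, at 1.04 (adjusted p = 0.058). It rose by 2.23 (SE 0.33, adjusted p = 7.67e-05) from D18 to D32, and D32 differed from P-RPE by -0.52 (SE 0.35, adjusted p = 0.228), which did not pass but did without P-RPE replicate 1, at -1.10 (adjusted p = 0.00382).

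Wif1, which binds Wnts through a domain of its own, was a gene of D7. It stood at 1.40, 1.94 and 1.19 CPM in MEF, 18.5, 19.4 and 10.8 CPM at D7, 0.955, 0.694 and 0.171 CPM at D18, 0.851, 1.11 and 0.887 CPM at D32 and 0.448 and 1.13 CPM in P-RPE. The D7 libraries were above all others. Wif1 rose by 3.42 (SE 0.43, adjusted p = 7.57e-06) from MEF to D7 and changed by -4.73 (SE 0.47, adjusted p = 6.69e-07) to D18. Sfrp4 stayed just below 10 CPM, with its highest mean, 9.83 ± 4.10 CPM, at D18 and 8.98 ± 0.831 CPM at D32 (SD, n = 3 for each).

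**Figure D3:**
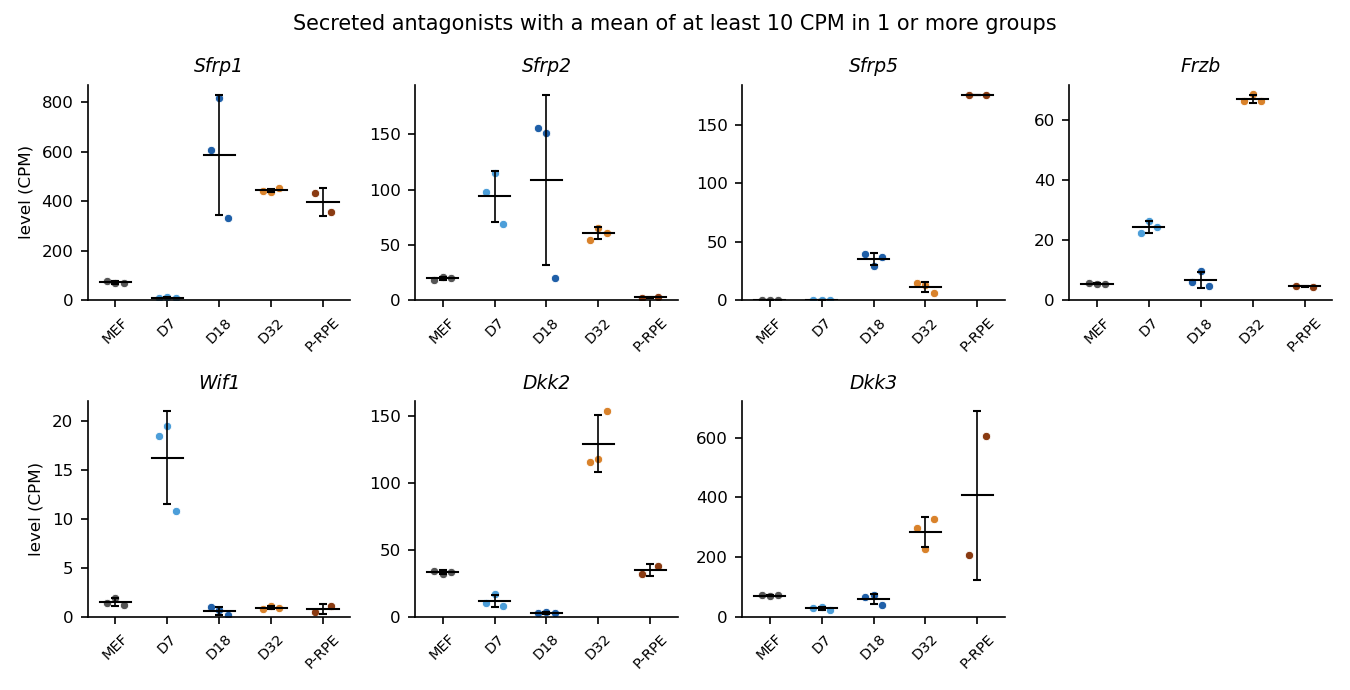
Level in CPM (linear axis from 0) of the 7 secreted antagonists whose mean reached 10 CPM in 1 or more groups; points are libraries, the horizontal bar is the group mean and the whiskers are 1 SD. Wif1 was highest at D7, Frzb and Dkk2 at D32 and Sfrp5 in P-RPE, and 1 of the 3 D18 libraries was low in Sfrp2.

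To compare genes with each other, levels were divided by the length of each gene's exons (CPM per kb). The summed ligand level was 44.2 ± 1.03 CPM per kb in MEF, 33.7 ± 1.10 at D7, 68.3 ± 3.78 at D18, 34.2 ± 4.50 at D32 (SD, n = 3 for each) and 17.5 ± 3.57 in P-RPE (n = 2). Wnt5a made 38.08% ± 0.817 of it in MEF, Wnt7b 39.6% ± 12.3 at D7, Wnt5b 47.7% ± 1.20 at D18 and Wnt5a 41.8% ± 7.08 at D32. In P-RPE, Wnt5a (19.7%), Wnt9a (19.0%) and Wnt5b (18.4%) were level. Ligand level was thus highest at D18, without overlap with the other groups. At D7, Wnt5a came next with 27.0% ± 4.404, and in D7 replicate 2 it was above Wnt7b per kb. At D7 and D18 the leading ligand rests on the length scaling, since as plain CPM Wnt5a had the highest mean of the ligands in each of the 5 groups. The level shares in P-RPE rest on the scaling too, since without it Wnt5a made 35.93% of the ligand sum there.

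The summed Frizzled level varied less, from 146.7 ± 3.67 CPM per kb in MEF (n = 3) to 210.9 ± 17.3 at D32 (n = 3), with P-RPE at 174.8 ± 6.15 (n = 2). Fzd7 led in MEF with 31.5% ± 0.525, Fzd1 at D7 with 46.0% ± 3.54, at D18 with 33.4% ± 5.38 and at D32 with 41.6% ± 7.16, and Fzd4 in P-RPE with 41.2% ± 3.44. Fzd10 came next at D7 (18.5%) and D18 (26.3%). At D18 that rank rests on the length scaling, since as plain CPM the mean of Fzd3 was 205 beside 139.9 for Fzd10. The summed antagonist level was 58.8 ± 0.688 CPM per kb in MEF and 73.0 ± 16.2 at D7, and then 227 ± 94.3 at D18, 278 ± 17.7 at D32 (SD, n = 3 for each) and 317 ± 73.4 in P-RPE (n = 2). Its leader was Dkk3 in MEF (36.0%), Sfrp2 at D7 (59.7%) and Sfrp1 at D18 (59.7%) and D32 (36.6%). In P-RPE, Dkk3 (36.1%), Sfrp5 (30.0%) and Sfrp1 (29.8%) differed by less than their SDs, of which the smallest was 6.94 points. The place of Sfrp5 there rests on the length scaling. As plain CPM its P-RPE mean was 175.7, beside 407 for Dkk3 and 395 for Sfrp1. The lead of Dkk3 in MEF rests on the scaling too, with 71.1 CPM beside 72.1 CPM for Sfrp1.

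**Figure D4:**
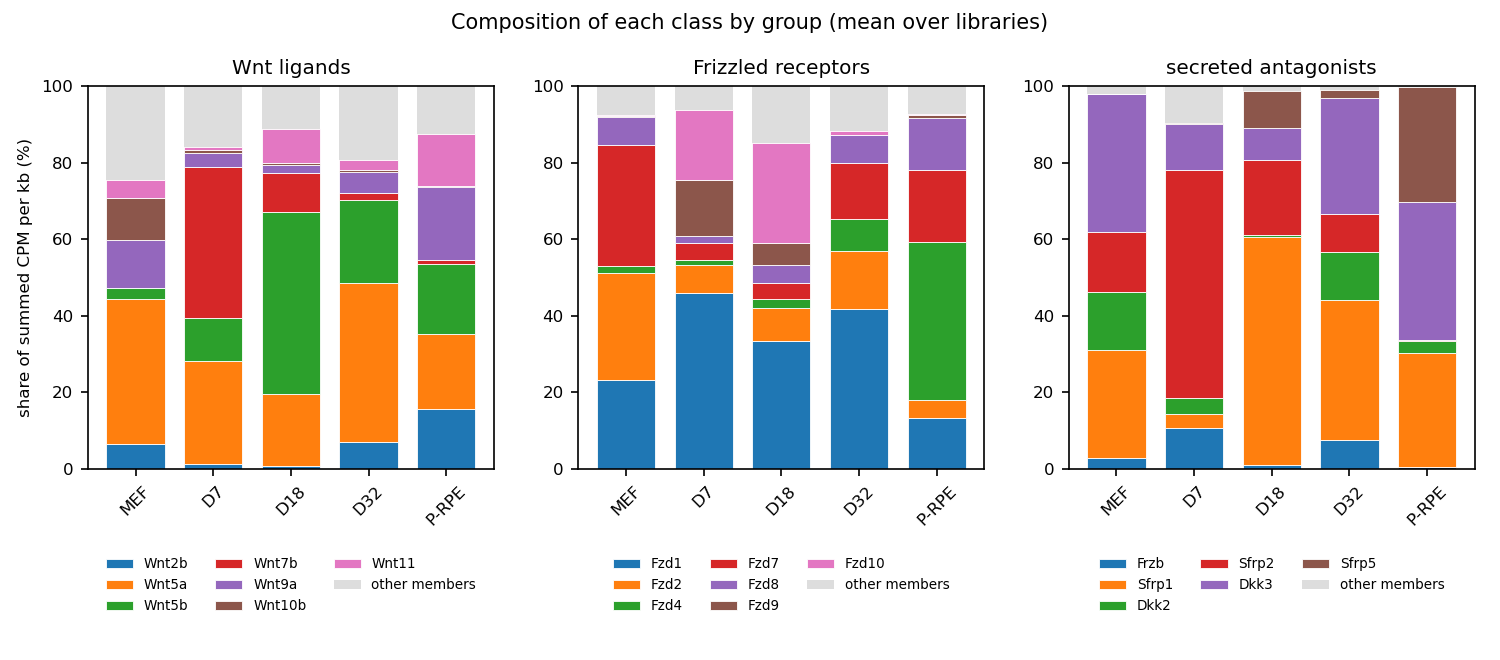
Share of each class's summed CPM per kb (percent, mean over the libraries of a group) held by members that reach 10% in at least 1 group; the remaining members are grey. The leading ligand per kb changes from Wnt5a in MEF to Wnt7b at D7, Wnt5b at D18 and Wnt5a again at D32, and the leading Frizzled is Fzd4 in P-RPE only.

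Against P-RPE, 45.9% of the tested members were higher at D32 and 18.9% lower, beside 27.1% and 26.8% of all genes. Higher at D32 with at least 10 CPM were Sfrp2, Frzb, Wnt5a, Fzd2, Fzd1, Dkk2, Fzd3, Wnt5b, Fzd5 and Fzd6. Lower were Sfrp5, Fzd4, Wnt9a and Fzd8, and Lrp6, Sfrp1, Fzd7, Lrp5, Wnt2b and Dkk3 did not pass. The largest differences each way were those of Sfrp2 and Sfrp5, both Wnt binders. With only 2 P-RPE libraries, the number of members called lower ran from 4 without P-RPE replicate 2 to 9 without P-RPE replicate 1.

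**Figure D5:**
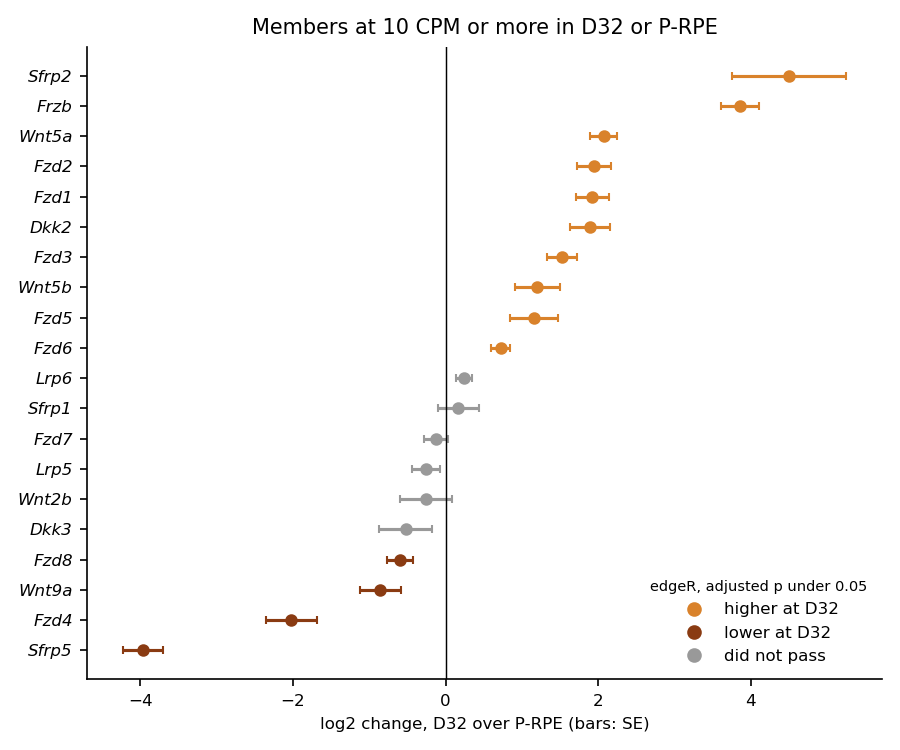
Log2 change of D32 over P-RPE (x axis) for the 20 members with at least 10 CPM in either group; points are the fitted changes, bars 1 SE, and colours the call at an adjusted p under 0.05. Sfrp2 and Frzb lie farthest to the right, and Sfrp5 and Fzd4 farthest to the left.

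The rest of the pathway was read from lists of genes by role. Of 9 target and feedback genes, 6 rose and 2 fell from MEF to D7 (66.7% and 22.2%, beside 28.5% and 26.5% of all genes). From D7 to D18, 0 rose and 7 fell (0% and 77.8%, beside 29.2% and 27.4%). Cells of D7 and D18 were both in the first medium, and the effects of its agents cannot be told apart here. Sp5, a transcription factor that beta-catenin switches on, rose from 0, 0.111 and 0.114 CPM in MEF to 11.7, 12.4 and 7.67 CPM at D7, by 7.05 (SE 0.58, adjusted p = 9.31e-08). Lef1, a TCF/LEF factor and a target itself, stood at 19.4, 17.97 and 16.8 CPM at D7 and 0.646, 0.907 and 0.370 CPM at D18, a change of -4.80 (SE 0.39, adjusted p = 9.99e-08). From D18 to D32, 1 rose, 3 fell and 5 did not pass (11.1% higher and 33.3% lower, beside 29.9% and 26.1% of all genes). The one that rose was Nkd2, a feedback inhibitor, from 13.9, 24.7 and 12.08 CPM to 376, 476 and 224 CPM, by 4.41 (SE 0.37, adjusted p = 4.97e-07). Nkd2 was also higher at D32 than in P-RPE, by 3.91 (SE 0.43, adjusted p = 6.96e-06). Over all genes, the median change from MEF to D7 was 0.04 and from D7 to D18 0.00.

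Of 14 genes of beta-catenin and its destruction complex, 4 rose and 4 fell to D7, 28.6% each way and so near the shares over all genes (28.5% and 26.5%). From D7 to D18, 2 rose and 6 fell (14.3% and 42.9%, beside 29.2% and 27.4%). Axin2, a scaffold of the complex that is made in response to beta-catenin, changed by 3.578 (SE 0.20, adjusted p = 1.88e-09) from MEF to D7 and by -1.85 (SE 0.19, adjusted p = 8.47e-07) from D7 to D18. It stood at 10.4, 13.9 and 11.9 CPM in MEF, 144, 169 and 120.4 CPM at D7, 36.2, 33.9 and 50.2 CPM at D18, 15.8, 11.2 and 15.7 CPM at D32 and 39.1 and 50.7 CPM in P-RPE. It was highest at D7 and overlapped MEF again at D32, where it was lower than in P-RPE, with a change of -1.66 (SE 0.20, adjusted p = 7.83e-06). Of the 4 TCF/LEF factors, 2 rose and 0 fell to D7 (50% and 0%, beside 28.5% and 26.5% of all genes), Lef1 by 2.10 (SE 0.33, adjusted p = 7.48e-05). From D7 to D18, 0 rose and 4 fell (0% and 100%, beside 29.2% and 27.4%).

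Of 3 genes of ligand lipidation, secretion and removal, 2 rose and 0 fell to D7 (66.7% and 0%, beside 28.5% and 26.5% of all genes). From D7 to D18, 1 rose and 1 fell (33.3% each way, beside 29.2% and 27.4%), and so did 1 each from D18 to D32 (beside 29.9% and 26.1%). Porcn, which adds the lipid, rose from 3.47, 3.29 and 3.83 CPM in MEF to 21.1, 24.15 and 17.1 CPM at D7 and 75.1, 90.3 and 68.2 CPM at D18, by 2.56 (SE 0.16, adjusted p = 5.63e-09) and 1.91 (SE 0.15, adjusted p = 6.03e-08), and stood at 26.5, 31.8 and 29.9 CPM at D32. Of the 9 genes of the R-spondins, which raise receptor levels, their receptors and the ligases they block, 3 rose and 4 fell to D7 (33.3% and 44.4%, beside 28.5% and 26.5% of all genes), and 2 rose and 5 fell from D7 to D18 (22.2% and 55.6%, beside 29.2% and 27.4%). Rspo4 was the one with the largest change, from 0.0609, 0.277 and 0.114 CPM in MEF to 52.6, 51.1 and 47.6 CPM at D7 and 1.35, 2.48 and 0.427 CPM at D18, by 8.33 (SE 0.54, adjusted p = 1.42e-08) and -5.14 (SE 0.42, adjusted p = 1.66e-07). It was thus a gene of D7, as Wnt7b, Fzd9 and Wif1 were by their highest means. The Norrin branch, Ndp and Tspan12, rose to D7 and again to D18 in both genes and fell in both to D32. Beside this 100% in each step, 28.5% and 29.2% of all genes rose and 26.1% fell. Ndp, which encodes the Fzd4 ligand Norrin, had a mean of 0.312 CPM in MEF, 12.5 CPM at D7, 21.3 CPM at D18, 1.66 CPM at D32 and 1.60 CPM in P-RPE. Its highest mean was thus at D18, while that of Fzd4 was in P-RPE. Ndp rose by 5.32 (SE 0.34, adjusted p = 6.12e-09) to D7.

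Among the 7 planar polarity genes, 5 rose and 1 fell to D7 (71.4% and 14.3%, beside 28.5% and 26.5% of all genes). To D18, 5 rose and 2 fell (71.4% and 28.6%, beside 29.2% and 27.4%), and to D32, 0 rose and 5 fell (0% and 71.4%, beside 29.9% and 26.1%). Celsr2, a polarity cadherin, rose by 4.67 (SE 0.15, adjusted p = 7.77e-12) to D7 and by 2.25 (SE 0.13, adjusted p = 3.33e-09) to D18, to 668, 685 and 670.4 CPM. Celsr1, its relative, changed by -3.15 (SE 0.21, adjusted p = 1.85e-08) to D32. Fzd3 had the same order of these groups, and the astrocyte and motile cilia markers were also highest at D18 (643.5 to 945 CPM for the 6 cilia genes); their part was not tested. All 4 co-receptors outside the Frizzled and Lrp families were higher at D32 than at D18 and than in P-RPE, with Ror1, a Wnt5a receptor, 2.01 (SE 0.16, adjusted p = 6.21e-08) above D18 and Ror2 4.17 (SE 0.70, adjusted p = 0.000297) above P-RPE; 29.9% and 27.1% of all genes were higher in these comparisons. The fibroblast markers were higher too, 6 of 10 against D18 and 10 of 10 against P-RPE, and their part was not tested. Of 7 other antagonists, 1 was higher and 4 lower at D32 than in P-RPE (14.3% and 57.1%, beside 27.1% and 26.8% of all genes). Sostdc1, an inhibitor of both Wnt and BMP signals, stood at 1.01, 1.49 and 0.342 CPM at D18, 63.1, 51.6 and 58.9 CPM at D32 and 262 and 214 CPM in P-RPE, a change of 5.91 (SE 0.36, adjusted p = 1.20e-08) from D18 and of -2.04 (SE 0.29, adjusted p = 5.10e-05) against P-RPE.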

How the data were processed

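RNA was measured by paired-end sequencing of libraries made with a NEBNext Ultra RNA kit, per the labels' protocols. The deposited mouse table gives raw counts by gene symbol, and samples were grouped by their titles. Per the submitters' processing notes, the tools were Subread with featureCounts, STAR 2.7.11a, limma 3.58.1 and edgeR 4.0.16, and the builds GRCm38, mm10 and GRCh38; strand, multiple matches and annotation release are not given in the sources used here. Even values make up 66.6% to 73.8% of the counts from 1 to 50 in each library, where neither parity should prevail, so the mates of a read pair may have been counted singly and counting errors may be larger than stated; this was tried as halved counts. A table of human libraries was not used here.

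The members and gene lists were chosen with earlier results of these data known. Counts were fitted with edgeR 4.0.16 in R 4.3.3: filterByExpr by group, which kept 20562 genes, TMM scaling, and 1 robust quasi-likelihood model of 5 group means over all 14 libraries. Each of 6 comparisons was a contrast, with Benjamini-Hochberg adjustment over all genes and calls at 0.05. The SE is the size of the log2 change over the square root of F. The groups varied unequally, with a common biological coefficient of variation from 0.0426 in MEF to 0.25 at D18. For a group with 1 to 3 counts, a ratio with an exact 95% interval is given. Members whose mean reached 10 CPM in a group are described by library, and of each list the called gene with the largest change and at least 10 CPM is named. Gene positions and exon lengths are from GENCODE vM21 (GRCm38), which matched all 41 members and 96.4% of symbols. The fit was tested on simulated counts, drawn with the same spread for every gene and group. That test therefore does not cover the unequal spread of these groups. Replicates of a group differed by more than counting noise, with a chi-square per gene of 3.56 to 104. Same-numbered libraries correlated weakly in their deviations from the group means (correlation of -0.10 to 0.10 over 26 pairs). Alternatives were RLE size factors, library totals, no filter, genes above a mean of 5 CPM, the replicate block, DESeq2 1.42.0, limma-voom, the compared groups alone and each library left out; halved counts and a fit without D18 were added after seeing the data.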

Additional observations from a re-analysis of the deposited data

How the results depend on the processing

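Over 134 changes of members at 10 CPM or more, 2052 values under other settings were obtained: 1996 kept the direction and the side of the threshold, 30 lost the call, 25 gained it and 1 turned. The one that turned was Lrp6 from MEF to D7, 0.038 with library totals alone. That setting moved the median gene by 0.32 from MEF to D7, -0.19 from D7 to D18, 0.20 from MEF to D32 and 0.23 for D32 over P-RPE, and the share of higher among called genes from 51.8% to 69.7%, from 51.6% to 40.7%, from 59.2% to 69.1% and from 50.2% to 62.1%; the cause was not tested. A mean of at least 5 CPM, which tests fewer members, left 6 lower from D7 to D18, 4 lower at D32 than in MEF and 5 lower in P-RPE than in MEF. Leaving out 1 library gave 4 to 9 members lower at D32 than in P-RPE. The labels do not say what the replicate numbers mark. No same-numbered pair's correlation was over 0.1, and 7 of 14 libraries correlated best with their own number. Such low values cannot show whether these libraries share a culture, animal or day. With the replicate block, 12 members rose and 18 fell from MEF to D7, and the counts of the other comparisons stayed within 1 of those given. Sfrp2 lost its calls under limma-voom, at 1.60 (adjusted p = 0.0751) for D32 over MEF and -2.92 (adjusted p = 0.0989) for P-RPE over MEF, Fzd8 lost its call for D32 over P-RPE with the 2 groups alone (-0.53, adjusted p = 0.0534) and Lrp5 gained one from MEF to D7 with DESeq2 (-0.43, adjusted p = 0.0362). At these totals a member near 0 in a group has few counts, so its fold is set by them. Shares of the class sums moved without length scaling. Wnt5a then made 58.32% of the ligand sum in MEF, 63.6% at D32 and 35.93% in P-RPE, and Wnt5b made 30.9% at D18. Of the antagonist sum, Sfrp2 then made 49.67% at D7 and Sfrp1 72.55% at D18, and Fzd4 made 49.16% of the Frizzled sum in P-RPE.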
